A study of Mus musculus with 44 samples.

Results

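The translation initiation and elongation factors of the mouse were followed through every library of a study of mRNA translation and poly(A)-tail length in neurons. They were taken by name, as the RefSeq genes whose symbol starts with Eif or Eef, which gave 69 of the 17158 genes listed. The rule used no measured value. Within them, 17 genes were set apart from the other 52 as a terminal oligopyrimidine (TOP) group and are called the TOP factors here. They are Eef1a1, Eef1b2, Eef1g, Eef2 and 13 subunits of eIF3, listed from general knowledge. The name labels the list, and such a tract is not established for each of its mRNAs.

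Initiation factors bring the small ribosomal subunit and the initiator tRNA to the start codon of an mRNA, and elongation factors then carry aminoacyl-tRNAs into the ribosome and move it along. Many mRNAs for elongation factors and ribosomal proteins begin with a C followed by a run of pyrimidines, the TOP motif, through which mTOR signaling can control their translation as a class. In the brain, eEF1A exists in isoforms from separate genes, Eef1a1 and Eef1a2, and neurons and muscle are known to switch from the former to the latter as they mature.

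Of 44 samples, 42 had a group in the labels. They came from 9 cortical cultures, 3 tissues and the visual cortex of 8 mice, and 2 ribosome-profiling libraries of miRNA cultures had no group because their labels named both miRNAs. Cultured neurons came from the cortex of newborn pups of either sex and were treated with ara-C, which holds back dividing cells. At DIV14 (day 14 in vitro) they were left unstimulated, given brain-derived neurotrophic factor (BDNF) or glutamate with glycine (glu/gly) for 30 min, or had received, on day 5, a lentivirus with EGFP under a synapsin promoter, alone (GFP) or with miR-1 or miR-155. At DIV10 they were left unstimulated or given KCl for 10 or 30 min. The tissues were cortex and hippocampus of adult male mice and hippocampus of embryos at embryonic day 16. The mice used for visual cortex were males 6 to 7 weeks old, kept in the dark for 1 week, of which 4 were then exposed to light for 1 h and 4 were not. The study's text names C57BL6J as the mouse strain it used.

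Each culture and tissue had RNA-seq and tail sequencing, and 10 of the 12 had ribosome profiling with a group, which sequences ribosome-protected fragments (RPFs), with 1 library per assay. Counts on coding regions ranged from 448022 to 7689624 reads for RNA-seq, and the RPF libraries of the named groups held up to 23212489 reads. Tail libraries held 389654 to 1057812 tags by TAIL-seq (cultures and adult cortex) and 86841 to 4812273 tags by PAL-seq v2 (visual cortex and hippocampus). With 1 library per group, intervals on a value are 95% intervals that cover counting error only, and neither animals nor cultures were replicated. Only the visual cortex had replicates, 4 mice in each group. The RNA-seq libraries of both hippocampi were made from poly(A)-selected RNA, while rRNA was depleted for 6 cultures and for adult cortex, so method and tissue cannot be told apart when these are set side by side. Markers of other cell types were present beside those of neurons. In the RNA of the cultures, the summed level of 5 neuronal markers was 2843 to 3507 CPM (tags or reads per 1e+06 on genes), that of 4 astrocyte markers 707 to 1520, that of 4 markers of dividing cells 152 to 722, that of 4 oligodendrocyte markers 4 to 15 and that of 4 microglial markers 0 to 18. The adult cortex and hippocampus had 715 and 1062 for astrocytes, 49 and 51 for dividing cells and 1532 and 1131 for oligodendrocytes.

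Together the factors took 1.17 to 1.32% of RNA-seq reads in the cultures, 0.916% in the adult cortex, 1.07% in the adult hippocampus and 1.75% in the embryonic hippocampus. The TOP factors alone took 0.312%, 0.401% and 0.895% in these 3 tissues. Among RPFs the factors held a narrower range, 1.01 to 1.35%. In every RNA-seq library at least 63 of the 69 had a read, and 2, Eif3j1 and Eif4a3l1, had none in any.

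Some factors share much of their coding sequence with other places in the mouse genome, such as processed pseudogenes, so that reads from them cannot be placed with certainty. Of all 30-nt words in the coding sequence, over 75% also occurred elsewhere in the genome for 8 factors: Eef1a1 (88.9%), Eef1g (95.3%), Eif1 (100%), Eif2s2 (84.5%), Eif2s3x (95.1%), Eif3j1 (99.7%), Eif4a1 (99.2%) and Eif4e (85.9%). For 44 factors it was under 10%. Eif1, which helps the ribosome to choose the start codon, had 0 or 1 RNA-seq reads per library but 97 to 300 TAIL-seq tags in each culture, and Eif4a1, the helicase subunit of eIF4F, had 0 to 18 RNA-seq reads but 32 to 73 tags. The levels of these genes were therefore read as uncertain, and the part of shared reads in each value was not tested.

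An elongation factor had the highest RNA level of the factors in 8 of 12 libraries, and an initiation factor in 4, Eif4a2 in 3 DIV14 cultures and Eif4h after 30 min of KCl. Levels of different genes are compared only as RNA-seq CPM per kb of coding sequence. By this measure Eef2, the GTPase that translocates the ribosome, ranked first of the factors in the RNA of 6 of the 12 libraries, and its level was 775, 746, 678, 769, 894 and 920 in the DIV14 cultures (unstimulated, BDNF, glu/gly, GFP, miR-1 and miR-155), 908, 857 and 700 in the DIV10 cultures (unstimulated, 10 and 30 min of KCl), 448 in the adult cortex, 524 in the adult hippocampus and 1354 in the embryonic hippocampus. Eif4a2, a helicase of eIF4F that is prominent in brain, was at 549 to 941 in the cultures, 628 and 502 in the adult cortex and hippocampus, and 296 in the embryo. Eef2 was thus highest in embryonic tissue and lowest in the adult cortex, whereas Eif4a2 was lowest in the embryo. Tail sequencing gave Eif4a2 only 6 to 17 tags per culture, beside 303 to 1919 RNA-seq reads. Of its coding words, 40.8% occur elsewhere in the genome. Its level and rank are therefore also uncertain, and the part of shared reads was not tested.

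The isoforms of eEF1A, which deliver aminoacyl-tRNA to the ribosome, differed most between stages. In the same order of samples, the RNA of Eef1a1 was at 690, 692, 597, 690, 648 and 854 at DIV14, 762, 667 and 516 at DIV10, 239 in the adult cortex, 332 in the adult hippocampus and 836 in the embryo. The RNA of Eef1a2 was at 397, 482, 363, 348, 469 and 391 at DIV14, 280, 268 and 183 at DIV10, 938 and 1209 in the adult cortex and hippocampus, and 56.0 in the embryo. Eef1a2 was thus the highest of the 69 factors in both adult tissues and 39th in the embryo. As a share of the pair, Eef1a2 made up 6.28% of the embryonic RNA, 26.2 to 28.7% at DIV10, 31.4 to 42.0% at DIV14, 78.4% in the adult hippocampus and 79.7% in the adult cortex. All 3 DIV10 libraries lay below all 6 DIV14 libraries, and these came from different cultures. The same split was seen in markers of dividing cells (528 to 722 CPM at DIV10, 152 to 501 at DIV14) and of astrocytes (1428 to 1520 and 707 to 1403), whose part in it was not tested.

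In ribosome-protected fragments the balance lay further toward Eef1a2, except in the embryo. Its share of the pair was 5.99% in the embryonic hippocampus, 37.1, 39.9 and 46.8% at DIV10, 58.9 to 63.0% in the 4 DIV14 cultures, and 90.03% and 90.3% in the adult hippocampus and cortex. The per-length ratio of Eef1a1 to Eef1a2 in RNA was 14.9 in the embryo (interval 13.7 to 16.3), 0.27 in the adult hippocampus (0.26 to 0.29) and 0.25 in the adult cortex (0.23 to 0.28). Tail sequencing gave no single balance: the adult hippocampus had 152 tags of Eef1a1 and 51 of Eef1a2, a ratio of 2.98 (2.16 to 4.18) in the opposite direction to RNA-seq, while the adult cortex had 217 and 525, a ratio of 0.41 (0.35 to 0.49). In the visual cortex libraries the ratio of tags was 0.0034 to 0.0097, and in the cultures 1.67 to 8.68. Most coding words of Eef1a1 occur elsewhere in the genome, so its level may be misstated in all libraries, and this was not tested.

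Initiation factors spanned a wide range of RNA levels by coding length. The highest beside Eif4a2 were Eif4h at 332 to 813, Eif5a at 238 to 588 (its known role is in elongation and termination despite the name), Eif1b, a copy of the start-codon factor eIF1, at 222 to 729, and Eif4g2 at 323 to 414 in the cultures, 342 and 339 in the adult tissues and 1174 in the embryo. The scaffold Eif4g1 was at 127 to 254. The subunits of eIF2B, which reloads eIF2 with GTP, were lower and unequal: Eif2b5 was at 98.1 to 144 in the cultures, whereas Eif2b3 was at 19.4 to 50.4. All 5 subunits act in 1 complex.

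The kinases that phosphorylate eIF2 in stress were scarce. Eif2ak1 was at 26.4 to 37.8 in the 9 cultures and at 56.3, 64.7 and 58.2 in the adult cortex, adult hippocampus and embryo, so that all tissues were above all cultures. Eif2ak2, the kinase activated by double-stranded RNA, ran in the other direction, at 4.13 to 20.7 in the cultures and 3.12, 3.30 and 4.51 in the tissues, with only the miR-1 culture as low as a tissue. It rested on few reads, 6 to 37 in the cultures and 8, 36 and 52 in the tissues. Eif2ak3, the kinase of the endoplasmic reticulum, was at 12.6 to 20.9 in every library, and Eif2ak4, the sensor of amino acids, at 5.62 to 12.5. Among the proteins that bind eIF4E, Eif4ebp1 was at 0 to 49.7 in the cultures and 4.52 to 6.84 in the tissues, and Eif4ebp2 at 0 to 15.9 in the cultures, 18.7 in the adult cortex, 59.7 in the adult hippocampus and 170 in the embryo. The culture values rest on 0 to 18 reads of Eif4ebp1 and 0 to 5 of Eif4ebp2, near the counting floor. In the adult cortex these genes had 3 and 10 reads.

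**Figure D1:**
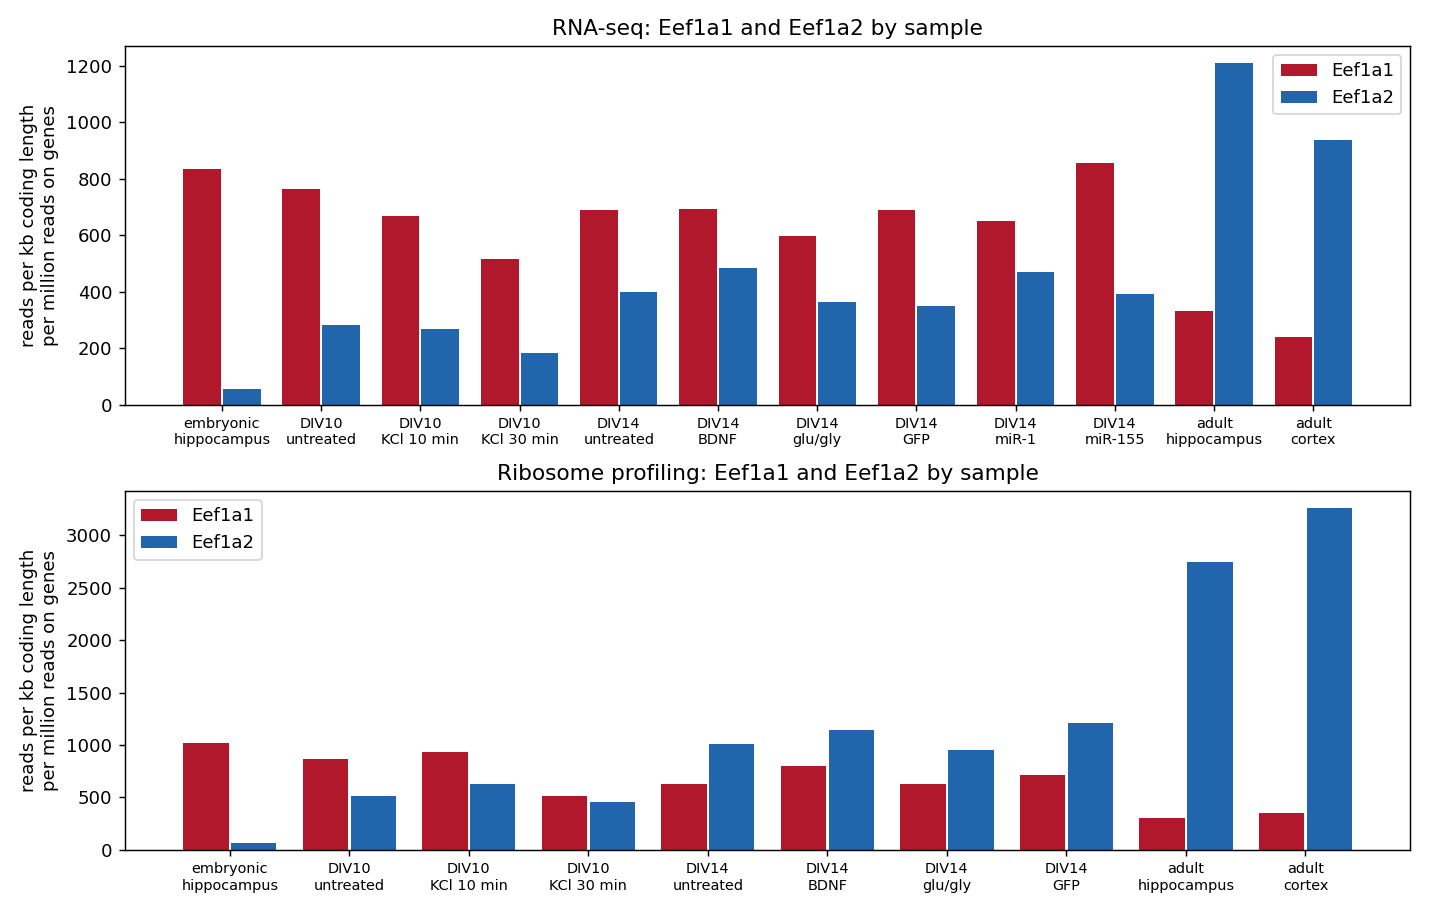
Levels of Eef1a1 (red bars) and Eef1a2 (blue bars) in CPM per kb of coding length (vertical axes) in RNA-seq libraries above and RPF libraries below, ordered from the embryonic hippocampus through the cultures to the adult tissues, with 1 library per sample and no error bars. In RNA, Eef1a2 goes from 56.0 in the embryonic hippocampus to 1209 in the adult hippocampus, and it exceeds Eef1a1 only in the adult tissues. In RPFs it also exceeds Eef1a1 in the 4 DIV14 cultures.

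Between the embryonic and the adult hippocampus, most factors had less RNA in the adult. Of 54 factors that reached 10 RPM (reads per 1e+06 mapped, the authors' scale) in either sample, 48 were lower and 6 higher in the adult, with a median log2 difference of -0.78 against -0.32 for all 8354 genes. Past a limit of 1 on the log2 scale, 19 factors were lower and 2 higher. Among all genes 27.6% were lower and 19.7% higher past this limit. With the median of all genes subtracted, 8 factors were lower and 3 higher, beside 19.2% and 24.6% of all genes. The TOP factors had the lower values: all 16 that were measured were below 0, also after the median was subtracted, with a median of -1.10, against -0.63 for the other 38. For 36 ribosomal protein genes, the best known TOP mRNAs, the median was -1.27, and 25 were lower past the limit. In 25 other genes of the pathway (poly(A)-binding proteins, release and recycling factors, and members of mTOR, eIF4E-kinase and eIF2 signaling) the median was -0.40, with 1 higher and 1 lower past the limit.

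Among elongation factors, Eef1a2 had 578 reads in the embryo and 11814 in the adult, a log2 difference of 4.43 (interval 4.31 to 4.55), while Eef1a1 differed by -1.33, Eef2 by -1.37, Eef1b2, which recharges eEF1A with GTP, by -1.26, and Eef1g, a subunit of the same complex, by -2.01. Eef2k, the kinase that inhibits eEF2, differed by -2.07. Thus the kinase and its substrate were both lower in the adult, and Eef1a2 alone of these genes was higher. The subunits of eIF3, the scaffold that binds the small subunit, ranged from -1.23 (Eif3f) and -1.22 (Eif3b) through -1.07 (Eif3e and Eif3h) and -0.83 (Eif3a) to -0.48 (Eif3k).

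Among the cap-binding complex and its regulators, Eif4g2, a relative of eIF4G that lacks the site for eIF4E, differed by -1.79, and Eif4ebp2, the main brain form of the protein that blocks eIF4E, by -1.51. The scaffold Eif4g3 differed by 0.05 and Eif4g1 by -0.61. Eif4a2 was higher in the adult by 0.76 (0.69 to 0.84), and Eif4a3, a helicase of the exon junction complex rather than of initiation, was lower by -1.35. The only other factor past the limit upward was Eef1akmt4-ece2 at 1.57 (1.25 to 1.90), a readthrough model that spans the methyltransferase gene Eef1akmt4 and Ece2, so that reads of Ece2 cannot be told apart from it.

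Each hippocampal value rests on 1 library per stage, and in bulk tissue fewer cells of a type and less RNA per cell cannot be told apart. The summed RNA of 4 genes of dividing cells was 2122 CPM in the embryo and 51 in the adult, that of 4 oligodendrocyte genes 14 and 1131 (with Mog at 0 in the embryo), that of 4 astrocyte genes 286 and 1062, and that of 5 neuronal genes 2632 and 3468. Their part in the differences between the stages was not tested. In RPFs, Eef1a2 differed by 5.41, Eef1a1 by -1.74 and Eef2 by -0.70. Some factors differed more in RPFs than in RNA: the RPF difference of Eif2b1 was -3.86 against -0.94 in RNA, that of Eif2b3 -3.47 against -0.08, and that of Eif5 -2.18 against -0.62. Eif2b1 and Eif2b3 had 59 and 131 RPFs in the adult, and 915 and 1553 in the embryo. These RPF libraries listed 12653 (adult) and 11880 (embryo) genes, fewer than the 14168 of the unstimulated DIV14 culture, despite more reads. The part of this in the values was not tested.

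The TOP factors were named from general knowledge, so the annotated 5' ends of their RNAs were examined for the motif itself. Windows of 25 bases are shown for the 4 elongation factors of the group, for Eif3f and Eif3l among the eIF3 subunits, and for Eef1a2 as the isoform outside the group. They are read on the strand of the gene from RefSeq on GRCm38.p6 (mm10), with the annotated first base at position 6, and capitals mark the longest run of C and T that begins within 5 bases of it.
Eef1a1 (chr9:78481705-78481729, minus strand): CCCTCTTCCCgagggtgggggagaa
Eef1b2 (chr1:63176826-63176850, plus strand): gTTCCgccggaagtagccgaggcct
Eef1g (chr19:8967036-8967060, plus strand): cgCTTTTTCCaactcagcggggctg
Eef2 (chr10:81176626-81176650, plus strand): cgggcgTTgacgtcagcggtctctt
Eif3f (chr7:108934410-108934434, plus strand): gCTCTCTCTCTTTCTCggcaagatg
Eif3l (chr15:79075218-79075242, plus strand): cttcttccgCTCTCTCCCacgggct
Eef1a2 (chr2:181156996-181157020, minus strand): tctgcgTTCTCgctcactggttctc

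A C followed by at least 4 pyrimidines stood exactly at the annotated first base in 1 of the 17 TOP factors (Eif3f, 5.88%), 1 of the other 52 (Eif2s3x, 1.92%), 16 of 85 ribosomal protein genes (18.8%) and 2.31% of all 17004 genes with a position. Beginning within 5 bases of it, the same letters were found in 6 of 17 TOP factors (35.3%), 13 of 52 others (25%), 36 of 85 ribosomal protein genes (42.4%) and 19.6% of all genes. Eef1a1, Eef1g, Eif3f and Eif3l are among the 6, and Eef2 and Eef1b2 are not. Eif3i, not shown, is also among them, with a run of 9 bases like Eif3l. A match is a description of the annotated letters, and the start sites used in these cells were not measured.

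Translational efficiency (TE) is the log2 ratio of RPF to RNA-seq RPM, computed for genes with at least 10 RPM of RNA and 1 RPF. It is written here after subtraction of the median of all genes in the same sample. A TE could be computed in all 10 samples for 29 factors, in some for 26 and in none for 14. The TOP factors were near or above the median gene in TE. Their median TE was 0.12, 0.19, 0.25 and 0.28 in the DIV14 cultures (unstimulated, BDNF, glu/gly and GFP), 0.06, 0.17 and 0.33 in the DIV10 cultures (unstimulated, 10 and 30 min of KCl), 0.51 in the adult cortex, 0.24 in the adult hippocampus and -0.07 in the embryonic hippocampus. It was thus above the median of all genes in 9 of 10 samples, and in 7 of 10 with a cutoff of 30 RPM for RNA, where it was -0.01 after BDNF, -0.14 in the unstimulated DIV10 culture and -0.08 in the embryo. With the 10 TOP factors that have under 25% of their coding words elsewhere in the genome, a choice made after the data were seen, it was 0.04 to 0.56 and above in all 10.

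Ribosomal protein genes had medians below that of all genes in every sample, at -0.99, -0.87, -0.88 and -0.99 at DIV14, -0.79, -1.04 and -1.29 at DIV10, and -0.29, -0.54 and -0.28 in the adult cortex, adult hippocampus and embryo. These medians rest on 20 to 25 of 85 genes in the cultures. In the adult cortex, adult hippocampus and embryo, 11, 24 and 36 of them had a TE. Sequence that ribosomal protein genes share with other places in the genome was not examined. The median of the other factors lay between -0.25 and 0.10, and that of the other genes of the pathway between -0.47 and 0.07. The median TE of the TOP factors thus lay above that of the ribosomal protein genes with a value in each of the 10 samples, with the smallest gap in the embryo.

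Of the 29 factors with a TE in all 10 samples, 6 stayed above the median of all genes, 4 stayed below it, and the others changed sides. The 6 above the median of all genes in all 10 samples were Eef1a1 (0.06 to 0.98), Eef1a2, Eif3b (0.24 to 2.23), Eif3g (0.25 to 1.53), Eif4h, a cofactor of the eIF4A helicase (0.03 to 1.56), and Eif5a, which relieves stalled ribosomes (0.44 to 1.62). Eef1a2 was at 1.85, 1.76, 1.82 and 2.34 at DIV14, 1.27, 1.70 and 1.89 at DIV10, 2.08 and 1.37 in the adult cortex and hippocampus, and 0.32 in the embryo, its lowest value. The 4 below the median in all 10 were Eif2b5, the catalytic subunit of the eIF2 exchange factor (-1.27 to -0.47), Eif3e (-0.97 to -0.05), Eif4a2 (-0.85 to -0.01) and Eif4g2 (-1.79 to -0.55). Subunits of the same complex, eIF3, were thus found at both ends, with Eif3b and Eif3g always high and Eif3e always low.

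The scaffold genes of eIF4F had a higher TE in the cultures than in the tissues. Eif4g3 had a TE of 2.42, 2.67, 1.52 and 2.70 at DIV14 and 1.93, 1.56 and 1.66 at DIV10, but -0.39 in the adult cortex, -0.30 in the adult hippocampus and -0.82 in the embryo. Eif4g1 was at 0.40 to 1.07 in the 7 cultures and at -0.07, 0.14 and -0.32 in the tissues. For both genes all cultures were above all tissues. The RNA of Eif4g3, by coding length, was 20.1 to 42.5 in the 9 cultures and 101, 113 and 110 in the tissues, while its RPFs were at 82.7 to 100 in the 7 cultures and 63.2, 80.8 and 57.7 in the tissues, so that RNA differed more than RPFs. Other genes ran in the opposite direction: Eif4h was at 0.03 to 0.69 in the cultures and 1.22, 1.56 and 0.78 in the tissues, and Eif4g2 at -1.13 to -0.55 against -1.51, -1.79 and -1.70. Each tissue is 1 library, and tissue type differs along with it. The RNA-seq method also differs for the adult and embryonic hippocampus, whose RNA was poly(A)-selected. For the adult cortex rRNA was depleted, as it was for some of the cultures, and Eif4g3 was at -0.39 there too. The differences between cultures and tissues were not tested.

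Of the eIF2 kinases, Eif2ak1 was at 0.38 to 0.63 in the 5 cultures with a value and at -0.39, -1.49 and -0.62 in the adult cortex, adult hippocampus and embryo, while Eif2ak3 was below 0 in all 6 samples with a value (-1.96 to -0.70). For Eif2ak1 the cultures were thus again above the tissues. The subunits of eIF2B differed from each other, with Eif2b4 at -0.89 to 0.11 and Eif2b2 at -0.12 to 0.91 in the 4 samples with a value, beside the low Eif2b5.

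Elsewhere a single tissue stood apart. Eif5, which triggers GTP hydrolysis by eIF2, was at -2.11 in the adult hippocampus and -0.62 to 0.16 in the other 9 samples. Eif3a was at -1.34 in the adult hippocampus and -0.43 to 0.78 elsewhere. The hippocampal RPF libraries listed fewer genes than the others despite more reads, and the part of this was not tested. Eif3f was at 0.80 to 1.59 in the cultures and 0.95 in the adult cortex, but at -0.35 and -0.51 in the adult and embryonic hippocampus. Eef1b2 was at -1.28 after 30 min of KCl, -0.64 to -0.26 in 8 other samples and 0.41 in the adult cortex, and Eef2 was within -0.03 to 0.36 except in the embryo, where it was at -0.67.

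The stimuli were examined through the TE difference, stimulated minus unstimulated, with the median difference of all genes subtracted. BDNF and glu/gly share 1 unstimulated culture, and so do the KCl times. Few factors lay past a limit of 0.5 on the log2 scale. After BDNF, 1 of 38 factors was higher by over 0.5 and 1 was lower, beside 5.59% and 6.48% of all genes. After glu/gly, 2 of 37 were higher and 4 lower, beside 8.41% and 10.0%. After 10 min of KCl, 5 of 40 were higher and 1 lower, beside 9.86% and 18.0%, and after 30 min, 4 of 33 were higher and 4 lower, beside 16.0% and 18.1%. The shares of factors were thus near or below those of all genes, apart from the higher side at 10 min of KCl. Each rests on 1 library per assay.

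The median TE difference of the TOP factors was 0.13 after BDNF, 0.11 after glu/gly, 0.13 after 10 min of KCl and 0.02 after 30 min. That of the other factors was -0.03, -0.25, 0.20 and -0.03. Ribosomal protein genes had 0.09, -0.02, -0.34 and -0.63, and 13 of 19 of them were lower by over 0.5 after 30 min of KCl. The other genes of the pathway past 0.5 numbered 1 higher and 3 lower of 22 after BDNF, 1 and 4 of 23 after glu/gly, 0 and 4 of 22 after 10 min and 3 and 2 of 16 after 30 min of KCl. The TOP factors and the ribosomal proteins therefore had their largest gap after 30 min of KCl.

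Among elongation factors, Eef1a1 had TE differences of 0.36 after BDNF (interval 0.16 to 0.55), 0.19 after glu/gly (-0.01 to 0.39), 0.37 after 10 min of KCl (0.21 to 0.53) and -0.07 after 30 min (-0.23 to 0.09). Eef2 had 0.29, 0.31, 0.17 and 0.02. Eef1a2 had -0.08 and 0.04 after BDNF and glu/gly, and 0.41 (0.16 to 0.66) and 0.57 (0.31 to 0.82) after 10 and 30 min of KCl. The isoform outside the TOP group was thus the one with the higher value at 30 min of KCl. Eef1d, another exchange factor of eEF1A, was at 0.54 (0.15 to 0.93) after 10 min.

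Eef1b2 had the largest difference of any factor. Its RNA reads were 358 unstimulated, 165 after 10 min and 400 after 30 min of KCl, and its RPFs 1798, 977 and 419. Per library its RNA was thus higher by 0.73 on the log2 scale after 30 min and its RPFs lower by 0.46, and the TE difference was -1.07 (-1.33 to -0.82), against -0.09 after 10 min. Of the other factors lower at 30 min, Eif1ax, the eIF1A paralog that helps scanning, was at -0.97 (-1.34 to -0.60), Eif3m at -0.96 (-1.44 to -0.48) and the cap-binding relative Eif4e2 at -0.83 (-1.33 to -0.32). In Eif1ax and Eif3m too the RNA was higher, by 0.77 and 0.87, and RPFs were lower, by 0.32 and 0.22.

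Those higher at 30 min of KCl were Eif3b at 0.95 (0.60 to 1.29), Eif2b4, a subunit of the eIF2 exchange factor, at 0.60, Eef1a2, and Eif3l at 0.54 (0.28 to 0.81). For Eif3b and Eef1a2 the RNA was lower, by 0.92 and 0.62, while RPFs differed by -0.09 and -0.17. In the same comparison the RNA difference of 3521 genes ran against the GC content of their coding sequence, with a Spearman rho of -0.43, and the TE difference with it, with a rho of 0.27. These are descriptions across genes of the same libraries. Coding GC content was 47.5% in Eef1b2, 40.7% in Eif1ax, 44.2% in Eif3m, 49.6% in Eif4e2, and, among the higher ones, 55.1% in Eif3b, 55.7% in Eif2b4, 56.8% in Eef1a2 and 51.6% in Eif3l, against a median of 53.1% for all genes. The part of base composition in these values was not tested.

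After glu/gly the factors lower in TE were Eif4g3 at -0.83 (-1.29 to -0.36), Eif1ax at -0.73 (-1.25 to -0.22), Eif4g1 at -0.60 (-0.82 to -0.38) and Eif5 at -0.51 (-1.08 to 0.06). For Eif4g3 this rested on 57 RNA reads before and 119 after, with a log2 difference of 0.00 in RPFs. The RNA of Eif4g1 was at 308 and 469 reads. Across 4710 genes in this comparison, the RNA difference rose with coding length (Spearman rho 0.36), as did the RPF difference (0.42). The TE difference had a rho of -0.05. Coding length was 4704 nt in Eif4g3 and 4803 nt in Eif4g1, against a median of 1344 nt for all genes, and its part was not tested. Both eIF4G scaffolds had their lowest TE of the DIV14 cultures in the glu/gly library. The higher ones were Eif3m at 0.62 (-0.14 to 1.38) and Eif4a3 at 0.57 (-0.12 to 1.25), and both intervals include 0. After BDNF, Eif3m was at 0.62 (-0.15 to 1.38) and Eif1b at -0.58 (-1.17 to 0.01), and both intervals include 0. After 10 min of KCl, Eif2b4 was at 0.79 (0.23 to 1.34), Eif2b1, of the same complex, at 0.61 (-0.07 to 1.28), Eef1akmt1, a methyltransferase of eEF1A, at 0.53 (-0.13 to 1.19), and Eif6, which keeps the large subunit apart from the small, at 0.50 (-0.06 to 1.07). The intervals of these last 3 include 0. Eif2s1, the alpha subunit of eIF2 whose phosphorylation slows initiation, was at -0.70 (-1.32 to -0.07).

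**Figure D2:**
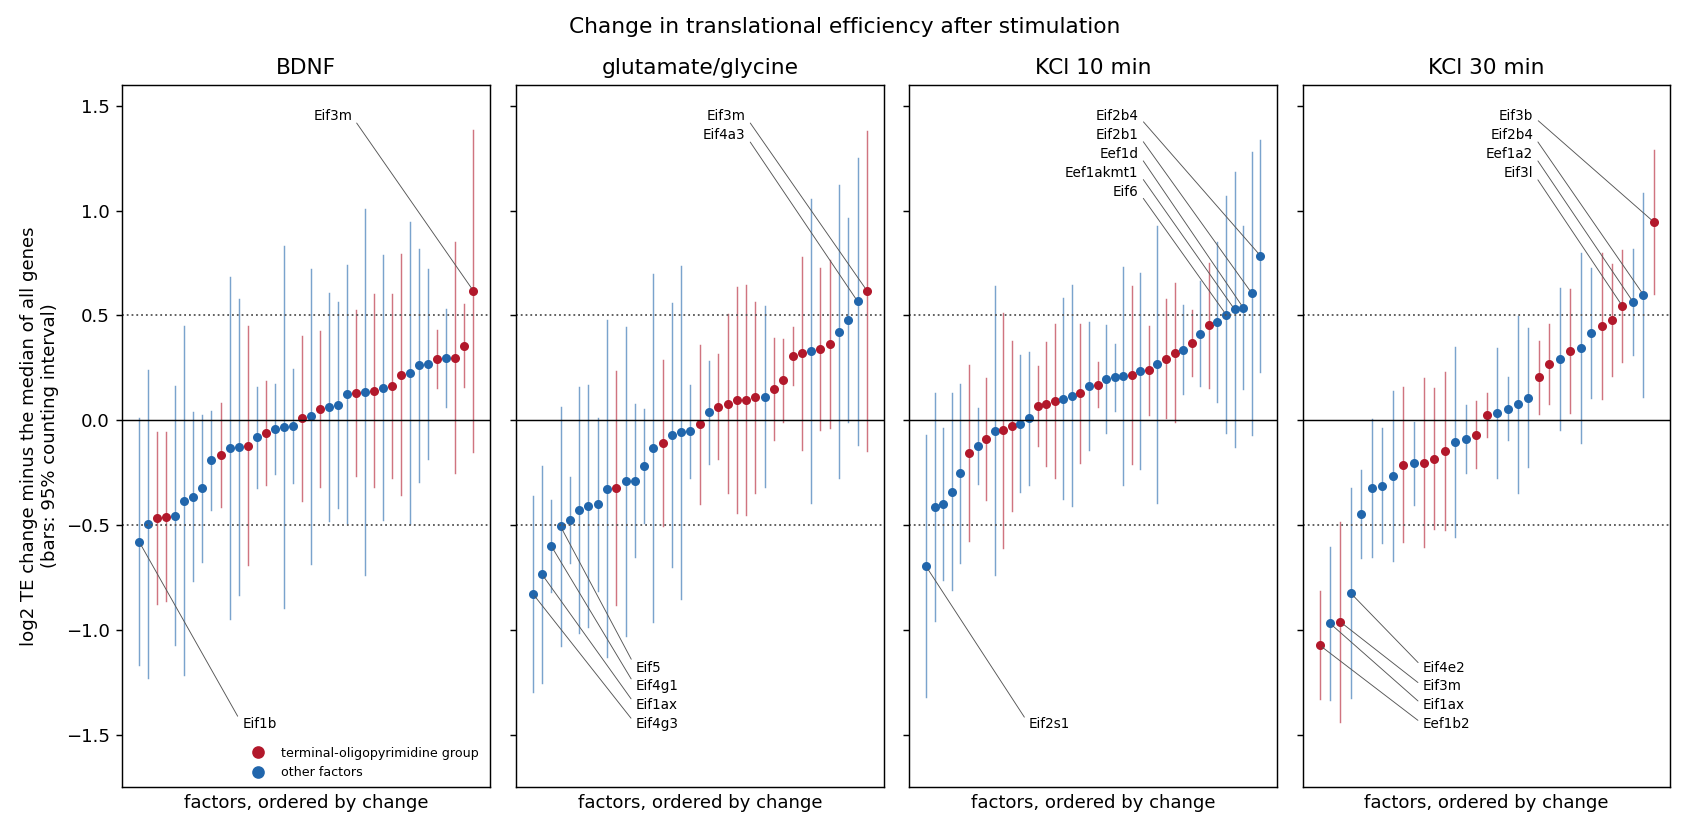
TE difference of each factor after each stimulus (vertical axis, log2, minus the median of all genes), factors ordered by value within a panel, with 95% counting intervals as bars, TOP factors in red, other factors in blue and dotted lines at 0.5 and -0.5. Factors past the limit are named, from Eef1b2 at -1.07 to Eif3b at 0.95 after 30 min of KCl.

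The TOP factors had shorter poly(A) tails than the median gene in nearly all libraries. Mean tail length was used for genes with at least 50 tags (for the hippocampi the file gives 1 unnamed value per gene, in steps of 0.5 nt, taken here as a median), and TAIL-seq and PAL-seq lengths are not compared with each other. The median tail of the TOP factors was below that of all genes in 19 of 20 libraries, by 16.8 to 22.0 nt in the 9 cultures, 12.6 nt in the adult cortex, 12.4 to 18.2 nt in the visual cortex of the 8 mice and 2.75 nt in the adult hippocampus. It was 0.5 nt above in the embryonic hippocampus, where only 5 TOP factors had enough tags. The other factors had medians between 8.0 nt below and 4.0 nt above all genes, and ribosomal proteins were 1.0 to 24.3 nt below. Tags that map to near-copies carry the tail of their own source, and their part was not tested.

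Eef1a1 had one of the shortest mean tails of all genes in the cultures. Its tail was 72.8, 69.6, 75.6, 73.8, 73.2 and 76.1 nt in the DIV14 cultures (unstimulated, BDNF, glu/gly, GFP, miR-1, miR-155) and 77.7, 73.2 and 79.3 nt in the DIV10 cultures (unstimulated, 10 and 30 min of KCl), which placed it at percentile 0.3 to 2.4 of genes. Medians of all genes were 100 to 112 nt there. It was at percentile 1.4 in the adult cortex, but at 23.6 in the adult and 61.3 in the embryonic hippocampus. In the last 300 nt of its RNA, 94.8% of words also occurred elsewhere in the genome, beside 55.7% for Eef1a2. Eef1a2 was at 119.1, 118.5, 117.0, 104.6, 96.5 and 103.1 nt at DIV14 and 101.1, 115.0 and 117.1 nt at DIV10, within percentile 37.5 to 81.4. The tails of the isoforms thus did not overlap in any pair of culture libraries.

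Eef1b2 (75.6 to 88.3 nt in the cultures) and Eif3h (75.6 to 85.4 nt) were short as well, and Eef2 (94.1 to 107.6 nt) was nearer the median. Eif3b was at 96.2 to 124 nt in the 8 cultures with enough tags. Outside the TOP factors, Eif1ax had 70.5 to 83.4 nt, at percentile 0.7 to 4.1, while Eif4h had 105.4 to 115.7 nt. In the visual cortex of the 8 mice the shortest TOP factor was Eif3e, at 49.8 to 63.3 nt, within the lowest 0.3% of genes in each mouse. Its mean there was 55.4 ± 5.7 nt in the dark (SD, n = 4) and 53.1 ± 4.7 nt in the light. In the last 300 nt of Eif3e, 64.2% of words also occurred elsewhere in the genome. Eif4b, which is not a TOP factor, was short in these mice too, at 55.6 to 73.9 nt and percentile 0.3 to 2.8. For Eif4b, 74.5% of such words occurred elsewhere.

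**Figure D3:**
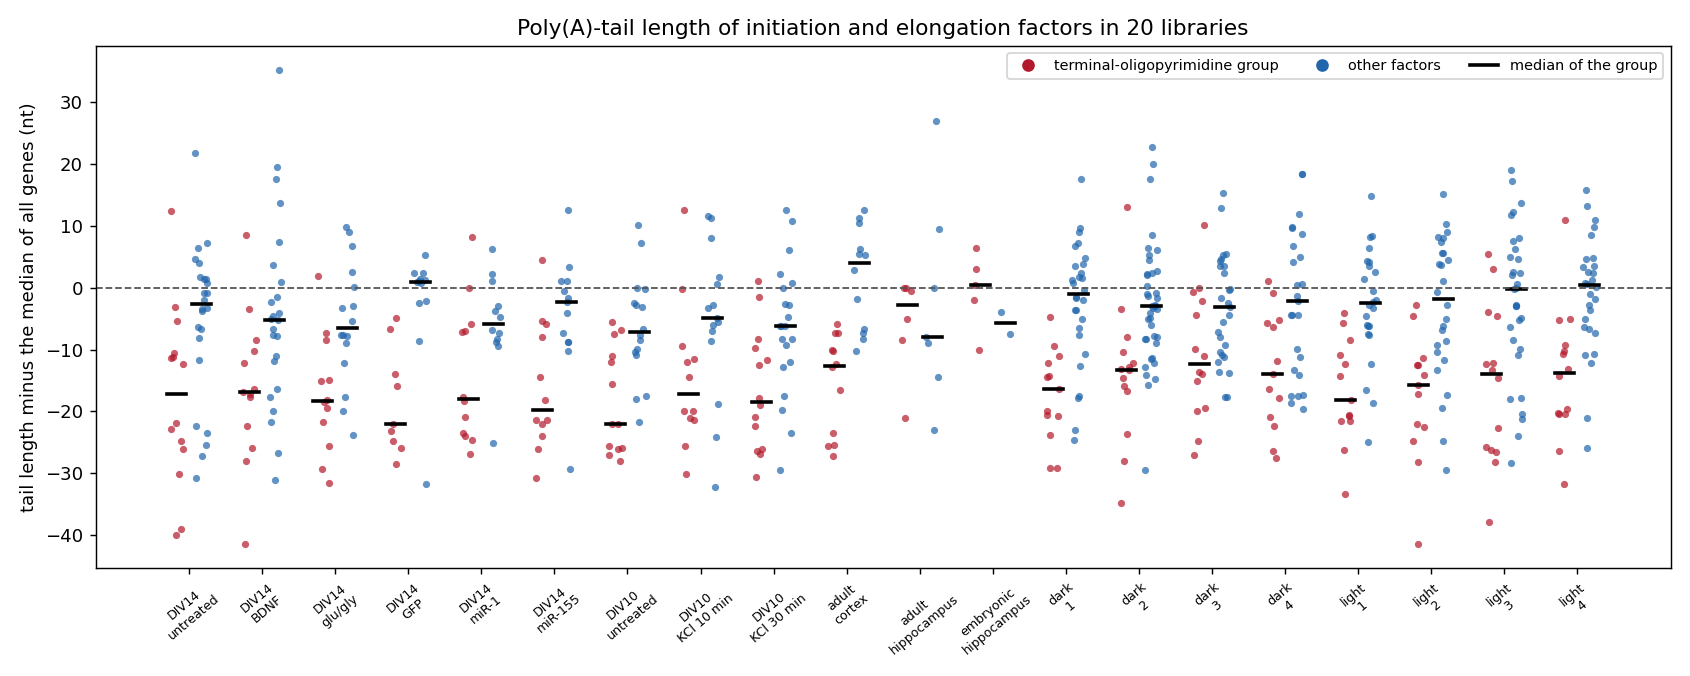
Tail length of each factor minus the median of all genes (vertical axis, nt) in each of the 20 tail libraries, the last 8 being visual cortex of dark and light mice, with TOP factors in red, other factors in blue and the median of each as a black line. The median of the TOP factors is below 0 in 19 libraries, by up to 22.0 nt, and at 0.5 nt in the embryonic hippocampus.

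After the stimuli, tail changes of the factors had medians near that of all genes. With the median change of all genes subtracted, the TOP factors changed by a median of -0.09 nt after BDNF, -2.92 nt after glu/gly, 2.19 nt after 10 min and 1.97 nt after 30 min of KCl, and the other factors by 0.01, 2.67, 1.95 and 0.62 nt. The SD of the change among single genes was 6.99 to 7.33 nt. The members that differed most were Eif3b, from 96.2 nt (65 tags) to 116 nt (53 tags) after 10 min of KCl, Eif3c, from 108.6 to 88.6 nt after BDNF, and Eif3e, from 100.4 to 77.8 nt after glu/gly. Eef1a2 was at 101.1 nt before KCl and at 115.0 and 117.1 nt after 10 and 30 min. No replicate was available for any of these.

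In the visual cortex, where the design had replicates, no factor passed the test for either measure. The activity-regulated genes Fos, Arc and Npas4 rose after 1 h of light, with log2 differences of 3.91, 3.29 and 2.84 in tags (adjusted p = 1.4e-06, 2.5e-05 and 5.2e-05, edgeR quasi-likelihood with Benjamini-Hochberg adjustment). Of 54 factors tested among 9554 genes, 0 were higher and 0 lower at an adjusted p under 0.05, beside 1.21% and 0.126% of all genes. At an unadjusted p under 0.05 there were 6, beside 9.45% of all genes, and with DESeq2 there were 3, with 0 called. The median log2 difference was -0.02 for the factors and -0.00 for all genes.

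Eef2, Eef1b2 and Eef1a2 had means within 1 SD of each other in dark and light. Eef2 was at 982 ± 93 CPM in the dark and 968 ± 62 in the light (SD, n = 4), Eef1b2 at 738 ± 72 and 742 ± 52, and Eef1a2 at 368 ± 18 and 366 ± 28. Eif1b, also abundant, was at 476 ± 32 and 533 ± 20 CPM, with a log2 difference of 0.19 (edgeR adjusted p = 0.47). Eef1a1 had only 2 to 12 tags in these libraries and was not tested. The smallest adjusted p among the factors was that of Eif5, at 228, 207, 204 and 201 CPM in the 4 dark mice and 171, 182, 154 and 160 in the 4 light mice. The log2 difference was -0.31 (SE 0.10, edgeR adjusted p = 0.18). Eef1akmt1 was at 34.2, 41.1, 39.0 and 31.4 CPM in the dark and 43.8, 48.5, 48.5 and 45.8 in the light, a log2 difference of 0.36 (edgeR adjusted p = 0.46). Eif5b, which joins the ribosomal subunits, was at -0.48 (edgeR adjusted p = 0.39).

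Other genes of the pathway were tested in the same fit, and 2 of 25 rose and 0 fell. Atf4, the transcription factor of the integrated stress response, was at 332, 299, 246 and 329 CPM in the dark and 383, 476, 514 and 367 in the light, a log2 difference of 0.56 (edgeR adjusted p = 0.0071). Mknk2, a kinase of eIF4E, was at 35.6, 18.5, 17.2 and 25.8 CPM in the dark and 43.8, 48.5, 46.2 and 33.9 in the light, at 0.90 (edgeR adjusted p = 0.028). For Atf4 the groups did not overlap, and for Mknk2 the ranges met at the edge, with 1 light mouse below 1 dark mouse. Of 53 ribosomal protein genes, 0 were called by edgeR, with 1 at an unadjusted p under 0.05.

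Tail lengths were tested with limma in 4321 genes with at least 50 tags in all 8 mice. Of 35 factors, 0 were longer and 0 shorter at an adjusted p under 0.05, beside 0.231% and 0% of all genes, and 1 had an unadjusted p under 0.05. That factor was Eif2s1, with tails of 90.8, 81.6, 63.8 and 62.4 nt in the dark and 91.6, 95.1, 102.7 and 74.3 nt in the light, a difference of 16.3 nt (SE 6.68). The groups overlapped. Eef2 was at 72.2 ± 6.4 nt in the dark and 75.8 ± 6.4 nt in the light (SD, n = 4), and Eif4h at 102 ± 9.8 and 105 ± 9.4 nt. The median difference was 4.22 nt for the factors and 3.75 nt for all genes, with median tails of single mice from 77.5 to 97.5 nt.

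In the cultures that expressed a miRNA, the RNA of the factors was near that of the GFP culture. The median log2 difference was 0.13 over 44 factors with miR-1 and 0.14 over 42 with miR-155, beside 0.01 and -0.00 for all genes. The values ran from -0.70 (Eif4enif1, which carries eIF4E into the nucleus) to 0.76 (Eif3b) with miR-1, and from -1.16 (Eif2s3y, a Y-linked gene of eIF2) to 0.82 (Eif3b) with miR-155. Of these, 43 of 44 and 37 of 42 lay between the 5th and 95th percentile of all genes. Eif3b had 47 reads in the GFP library, to which both were compared, and each culture is 1 library. The sex of the pups was not determined, and the part of male pups in the Eif2s3y value was not tested.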

How the data were processed

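RNA-seq, ribosome profiling and tail sequencing were analysed from the tables the authors deposited, 1 per sample. The submitters' processing notes name STAR 2.4.2, bedtools and mm10, without a role. The authors deposited raw counts and RPM of RNA-seq reads and RPFs in coding regions of RefSeq genes, leaving out the first 50 nt of each, and a table of log2 TE. Their RPM divide by more reads than fall on genes. Deposited tail tables hold counts of tags on annotated 3' ends and tail lengths in nt.

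Levels were recomputed as CPM (counts divided by reads on genes, times 1e+06), also per kb of coding length. TE was the log2 ratio of the authors' RPM, RPF over RNA, for genes with at least 10 RPM of RNA and 1 RPF, centred on the median of all genes in the sample. The deposited log2 TE served as an alternative. Tails were used with at least 50 tags. With 1 library per group, differences have 95% Poisson intervals that cover counting error only and no test. A TE difference was counted past 0.5 and a level difference past 1, both log2. For light, tags were tested with edgeR 4.0.16 (quasi-likelihood, TMM normalization) and mean tails with limma 3.58.1, 4 mice against 4, over all genes, with Benjamini-Hochberg adjustment at 0.05. DESeq2 1.42.0 was an alternative, as were other minimums, scalings and each mouse left out. P-values measure the spread between these mice. On simulated data, the edgeR step recovered 100% and the limma step 99.5% of changed genes. Both simulations had less spread than the visual cortex libraries and changes large for that spread. These rates therefore do not measure the power to detect changes in these mice. Python 3.11.15, pandas 2.3.3, scipy 1.17.1 and R 4.3.3 were used.

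The factors were all genes whose symbol starts with Eif or Eef. Named are the TOP factors, a fixed list of other factors and, for each comparison, up to 6 others with the largest change. The members and all lists were chosen with earlier results of these data known. Positions, first bases and coding lengths came from RefSeq on GRCm38.p6. A 30-nt word of an mRNA counted as found elsewhere when the genome held it outside the gene's own locus. The 2 miRNA RPF libraries with contradictory labels entered no comparison.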

Additional observations from a re-analysis of the deposited data

Results flagged for a closer look

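Eif4a2 moved to opposite sides of the median of all genes after KCl. Its TE difference was 0.34 after 10 min (interval 0.12 to 0.55) and -0.21 after 30 min (-0.40 to -0.01). Both times were set against the same unstimulated culture, with 1 library per assay, and the difference between the times was not tested.

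The tail of Eif4b, an RNA-binding cofactor of the eIF4A helicase, was 67.8 nt in dark replicate 1 and 61.0, 59.7 and 60.3 nt in the other dark mice, so that this mouse lay far from the others by Dixon's criterion. Chance flags about 1 in 20 groups by this criterion. The median tail over all genes in that mouse, 92.4 nt, was the longest of the 4 dark mice.

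The 2 RPF libraries of miRNA cultures, whose labels each name both miRNAs, also held the factors: they took 1.21% and 1.13% of reads on genes.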

How the results depend on the processing

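Of 96 alternatives to 18 results, 81 left the value within the spread or within 1.5 times and 15 moved it. A reversal was defined only for the median TE and median tail of the TOP factors, and 0 occurred. Many of the 81 set a count of 0 against 0 in the visual cortex, and the deposited TE nearly repeats the main ratio. With an RNA cutoff of 30 RPM, the median TE of the TOP factors was 0.11 in place of 0.22 and above that of all genes in 7 of 10 samples, the factors past 0.5 were 0 higher and 0 lower after BDNF, 0 and 1 after glu/gly, 0 and 0 after 10 min of KCl and 1 lower after 30 min, and 1 factor was higher in the adult hippocampus. Fewer genes were tested under that cutoff. With reads on genes and no median subtracted, 2 factors were lower after BDNF, 2 higher after 10 min and 1 higher after 30 min of KCl. In the hippocampus, 8 factors were lower with the median of all genes subtracted and 31 by the authors' RPM, and 5 were higher by PAL-seq tags. The RPM scale moved the median of all genes from -0.32 to -0.64, and Eef1a1 from -1.33 to -1.65. The share of all genes past the limit was not counted by RPM or by tags. The cause of the other shifts was not tested.

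With light, 0 factors were called under any alternative run, also with each mouse left out in turn (0 in each case). Over all genes, leaving out 1 mouse gave 94 to 130 genes higher, 6 to 20 lower, 1 to 21 with longer tails and 0 to 6 with shorter tails. With each library's median tail subtracted, an alternative chosen after the data were seen, as was the set of TOP factors with little shared sequence, 0 factors were called. The replicate numbers did not pair the mice (correlation of same-numbered deviations -0.20 to 0.04), and with a replicate block 0 factors were called, with 103 genes higher and 10 lower in tags. The median tail of the TOP factors minus that of all genes was -15.03 nt with at least 20 tags and -17.3 nt with at least 100. Depth limits the factors with under 10 RPM of RNA, for which no TE was computed, and the embryonic tail library, where 208 genes had 50 tags.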

Other observations

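Other genes of translation control had TE values at the extremes, relative to the median of all genes. Atf4, whose mRNA is known to be held back by upstream reading frames, had a median TE of -3.22 over 10 samples (-3.85 to -1.81), and Ppp1r15a, a phosphatase subunit for eIF2 with the same kind of leader, -3.37 over 5 samples (-3.71 to -2.33). On the other side were the release factor Gspt1 with 1.87 over 10 samples (0.90 to 2.21) and the poly(A)-binding protein Pabpc1 with 1.29 over 9 samples, though with a wide range (-1.01 to 2.48). Between the embryonic and adult hippocampus, Pabpc1 differed by -1.56 in RNA (log2) and Gspt2, a paralog of Gspt1, by 1.68, each with 1 library per stage.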
